A study of Mus musculus with 6 samples.

Results

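The 44 genes described here are microglial identity genes together with genes of complement, Fc receptors, toll-like receptors and the lysosome, and they were chosen as the array probes whose gene name in the scanner files equals one of 44 listed symbols. The arrays held 58 such probes among 55681, and 43 of the 44 genes were tested among 32698 genes in all. The only probe of C5ar1, the receptor for the complement fragment C5a, was not well above background on any of the 6 arrays, so this gene has no comparison. The RNA came from the primary somatosensory cortex (S1) of C57BL/6 mice at postnatal day 7, and each sample was hybridised to 1 single-colour array. The control group held 3 samples of genotype Lhx2f/f, with floxed alleles of the LIM-homeodomain gene Lhx2 and without Cre. The cKO group held 3 samples of genotype Lhx2f/f;Nex-Cre, in which the same floxed alleles meet a Cre driven from the Neurod6 (Nex) locus. Nex-Cre acts in excitatory neurons of the cortex and not in microglia, which arise outside the brain. Nothing in the labels ties each sample to an animal of its own, so every p-value refers to the spread between 3 samples a group, which may be technical.

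Microglia are the resident macrophages of the brain. They depend on signalling through the receptor Csf1r and on the transcription factors PU.1 (encoded by Spi1) and Irf8. In the early postnatal cortex they clear dying cells and take part in synapse removal, in which C1q and C3 mark material that complement receptor 3, made of the Itgam and Itgb2 products, recognises. Trem2 and the activating Fc receptors signal through the adaptors Tyrobp and Fcer1g, which carry the phosphorylated motif called ITAM.

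Most of these genes gave less signal on the arrays labelled cKO, and none passed the test across all genes. The log2 difference was below 0 for 40 of 43 genes (44.3% of all tested genes), with a median of -0.46 against 0.02 over all genes. By limma with Benjamini-Hochberg adjustment, 0 of 43 passed an adjusted p of 0.05, as 0.00917% of all genes did (3 genes, each higher). At an unadjusted p under 0.05, 23 of the 43 were lower (4.37% of all genes) and 0 were higher (3.12% of all genes). For 20 of the 43, every array labelled cKO lay below every control array (6.19% of all genes), and for 0 every one lay above (6.98% of all genes). The genes were chosen with earlier results of these data known, so these shares describe them and do not test the list. In bulk tissue, fewer cells of a type and less RNA per cell cannot be told apart.

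The arrays set limits on these directions. The Lhx2 probe, which should check the labels, read 3.62, 3.63 and 3.55 in control and 4.55, 4.68 and 4.89 in the cKO group (log2 processed signal minus the 75th percentile of its array, the unit of every level below). Its signal was thus higher where the label names a knockout (log2 difference 1.1, SE 0.11, limma adjusted p = 0.067). The sources used here do not give the part of Lhx2 that Cre removes, and a probe elsewhere in the gene would check nothing, so the text speaks of arrays labelled cKO, and each direction rests on those labels. Signal of Y-linked genes was present on 2 of 3 control arrays (replicates 1 and 3) and on 0 of 3 arrays labelled cKO. A single slide of 4 rows carried the 6 arrays. Row 1 held control replicate 1 with cKO replicate 2, and row 2 held control replicate 2 with cKO replicate 3. All control arrays and cKO replicate 1 lay in slide column 1, and cKO replicates 2 and 3 in column 2. A comparison within either of these rows is thus also one between columns. The 75th percentile of the processed signal lay between 822 and 975 intensity units, 0 spots were saturated, and on each array 86.7% to 91.1% of spots stood well above background.

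Promoter sequences are shown first, because PU.1 binds at many macrophage promoters, at a short core that can be read by eye. The RefSeq promoter table (build GRCm38.p6) held windows from 250 bases before to 50 bases after the start site for 31 of the 44 genes, 34 windows in all. The core GAGGAA, read on either strand, was in 19 of these 34 windows (55.9%), belonging to 18 genes, against 28.3% of all 32851 windows. The core began between 60 bases and 1 base before the start in 13 of the 34 windows (38.2%), belonging to 12 genes, against 6.51% of all windows. This stretch was chosen after the positions had been seen, and both windows of Fcgr3 hold the same core. Of the 12 genes, the 6 with the smallest unadjusted p are printed, from 80 bases before to 20 bases after the start and on the gene's own strand, with each core in capitals (TTCCTC where it lies on the other strand).
C1qb (chr4:136886181-136886280, minus strand): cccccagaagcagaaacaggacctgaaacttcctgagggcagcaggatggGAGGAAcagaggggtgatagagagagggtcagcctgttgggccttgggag
Trem2 (chr17:48346321-48346420, plus strand): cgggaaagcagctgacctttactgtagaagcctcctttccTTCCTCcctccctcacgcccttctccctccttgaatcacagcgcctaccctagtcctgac
Hpgds (chr6:65144711-65144810, minus strand): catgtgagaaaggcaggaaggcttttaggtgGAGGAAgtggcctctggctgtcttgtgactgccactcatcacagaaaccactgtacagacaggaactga
P2ry13 (chr3:59210863-59210962, minus strand): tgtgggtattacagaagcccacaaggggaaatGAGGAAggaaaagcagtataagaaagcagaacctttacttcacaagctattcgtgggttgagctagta
Laptm5 (chr4:130913236-130913335, plus strand): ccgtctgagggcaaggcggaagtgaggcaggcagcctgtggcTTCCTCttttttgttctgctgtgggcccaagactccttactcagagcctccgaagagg
Aif1 (chr17:35176033-35176132, minus strand): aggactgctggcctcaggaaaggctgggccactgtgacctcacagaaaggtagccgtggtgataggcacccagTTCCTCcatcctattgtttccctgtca

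In these windows the first base of the core lay 30 bases before the start in C1qb, 40 in Trem2, 49 in Hpgds, 48 in P2ry13, 38 in Laptm5 and 7 in Aif1. The other 6 genes were Cd53, Fcgr1, Fcgr3, Itgam, Mrc1 and Siglech. The windows of Cx3cr1, Fcer1g, Irf8, Mpeg1, P2ry12 and Tlr2, among others, did not hold these letters, which says nothing about the factor at those genes. The repeat of interferon regulatory factors, searched as 2 copies of GAAA with any 2 bases between them, was in the windows of 2 genes, Aif1 and Ctss (5.88% of the 34 windows against 3.44% of all). The AP-1 site TGANTCA was in the windows of 3 genes, C3ar1, Cd68 and Trem2 (8.82% against 7.81%). A match of letters is a description and not a bound site.

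**Figure D1:**
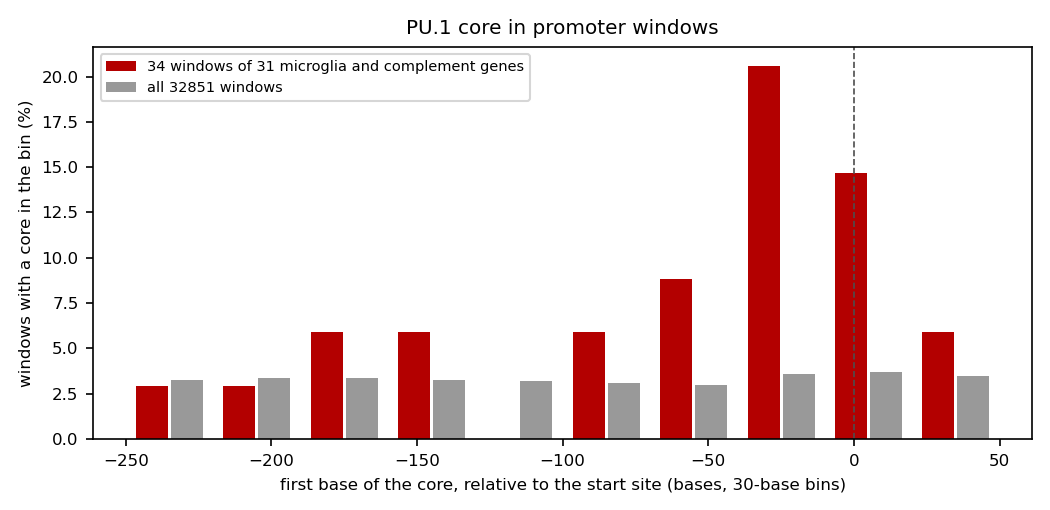
Share of promoter windows (vertical axis, percent) in which the PU.1 core GAGGAA begins in each 30-base bin, by the position of its first base relative to the start site (horizontal axis, bases), for 34 windows of the microglia and complement genes and for all 32851 windows. The tallest bar of the genes described here is 20.6%, at 40 to 11 bases before the start, where all windows stand at 3.58%.

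Receptors and surface proteins by which microglia are recognised came first among the roles, with 15 genes tested. Of these, 14 had a log2 difference below 0 (44.3% of all genes), with a median of -0.54. At an unadjusted p under 0.05, 9 were lower (4.37% of all genes). In 7 the groups did not overlap, with every array labelled cKO below control (6.19% of all genes). Cx3cr1, the receptor for the neuronal chemokine fractalkine, read 1.68, 1.75 and 2.22 in control and 1.28, 0.98 and 0.93 on the arrays labelled cKO. All 3 of the latter lay below every control array, a 1.77-fold lower signal (log2 difference -0.82, SE 0.17, adjusted p = 0.27). The other probes of Cx3cr1 gave -0.82 and -0.84, and their groups did not overlap either. For such further probes of a gene, SE and adjusted p come from a separate limma fit over 50030 single probes. P2ry6, a receptor for the nucleotide UDP linked to phagocytosis, read -0.75, -0.74 and -0.89 in control and -1.13, -1.43 and -1.75 on the arrays labelled cKO. Again the groups did not overlap, with a 1.57-fold lower signal (log2 difference -0.65, SE 0.16, adjusted p = 0.33).

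Gpr34, a receptor for lysophosphatidylserine, read -0.70, -0.59 and -0.93 in control against -1.18, -1.38 and -1.92, which is 1.69-fold lower without overlap (log2 difference -0.75, SE 0.20, adjusted p = 0.36). Hpgds, the haematopoietic prostaglandin D synthase, read -3.01, -2.87 and -2.89 in control against -3.10, -3.64 and -3.76. For Hpgds cKO replicate 1 came close to the control arrays while the other 2 lay well below them, and the log2 difference was -0.58 (SE 0.18, adjusted p = 0.46). The remaining genes without overlap were P2ry13, a receptor for ADP, at a log2 difference of -0.62, the lysosomal membrane protein gene Laptm5 at -0.65, and Csf1r, the receptor for the growth factors CSF1 and IL-34, at -0.54. P2ry12, the ADP receptor that steers microglial processes, had a log2 difference of -0.70, and Tmem119, a membrane protein gene used as a microglial marker, one of -0.46. In both, control replicate 3 was the lowest control array and lay below cKO replicate 1.

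The other surface genes showed smaller differences. The log2 difference was -0.36 for Olfml3, which encodes a secreted protein, -0.27 for the tetraspanin gene Cd53, -0.19 for the Fc receptor-like gene Fcrls, -0.04 for the lectin gene Siglech, -0.03 for Ptprc, which encodes the leukocyte phosphatase CD45, and 0.06 for Selplg, the ligand of P-selectin. The other probes gave -0.90 for Laptm5, -0.66 and -0.16 for Csf1r and -0.03 for Olfml3, so the size differed between probes for Csf1r and Olfml3. At both other probes of Csf1r the groups overlapped, unlike at its brightest probe. Fcrls was at 0.16 within slide row 1 and at -0.48 within row 2. Selplg was 1 of 2 genes whose tested probes differed in sign. Its brighter probe read -0.80, -0.90 and -0.56 in control and -0.42, -1.04 and -0.63 on the arrays labelled cKO, with the groups interleaved. Its dimmer probe read -1.48, -1.30 and -1.90 against -1.62, -1.84 and -2.50 (log2 difference -0.43, SE 0.26), and these groups overlapped as well.

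**Figure D2:**
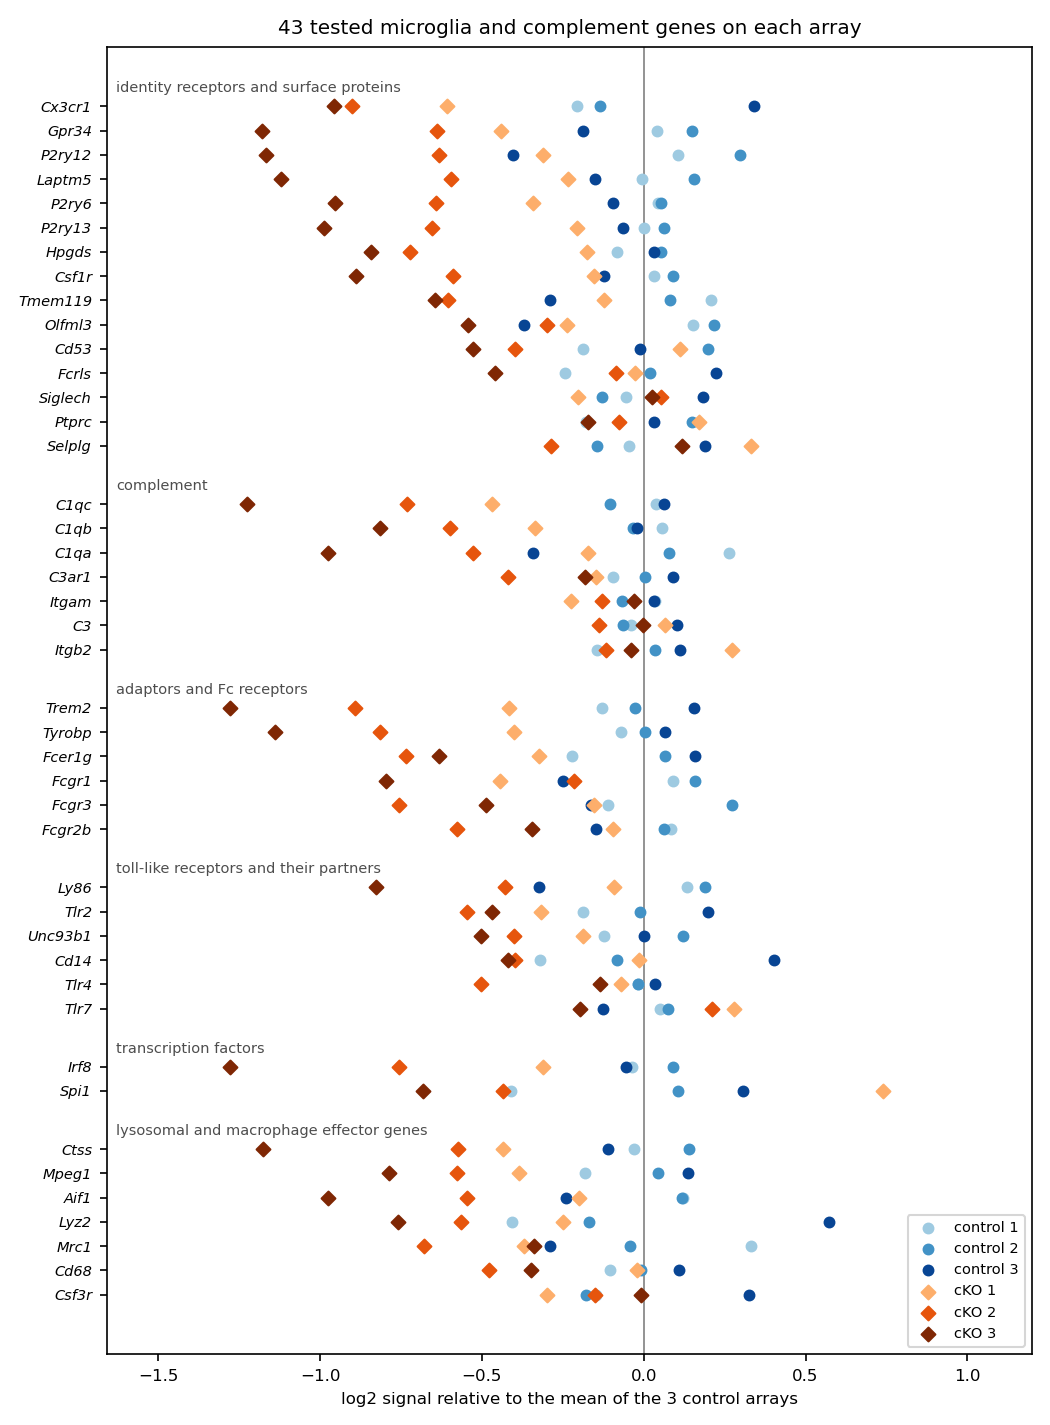
Log2 signal of each of the 43 tested genes on each array, relative to the mean of the 3 control arrays (horizontal axis), with genes grouped by role (vertical axis), circles for control and diamonds for the arrays labelled cKO. In 20 of the 43 genes all 3 diamonds lie left of every circle (6.19% of all genes), and in the others they overlap. Among the diamonds, cKO replicate 1 is the highest in 38 genes and cKO replicate 3 the lowest in 29, counts for which no share over all genes was taken. Of all 6 arrays, cKO replicate 3 is the lowest in 28 of the 43 (12.2% of all genes).

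Of the complement genes, 6 of 7 had a log2 difference below 0 (median -0.25), among them the 3 chains of C1q, and none passed the test. C1q is the recognition molecule of the classical pathway and is made in the brain mainly by microglia. C1qc read 1.57, 1.42 and 1.59 in control and 1.06, 0.79 and 0.30 on the arrays labelled cKO, so that no values overlapped (1.75-fold lower, log2 difference -0.81, SE 0.19, adjusted p = 0.32). C1qb read 0.62, 0.53 and 0.55 in control and 0.23, -0.031 and -0.25 on the arrays labelled cKO. These did not overlap either (1.5-fold lower, log2 difference -0.58, SE 0.13, adjusted p = 0.31). C1qa read 0.79, 0.61 and 0.19 in control and 0.36, 0.0027 and -0.45 on the arrays labelled cKO. Here control replicate 3 lay below cKO replicate 1, the log2 difference was -0.56 (SE 0.24), and the unadjusted p was 0.053. The probes lie side by side on chromosome 4 of mm9, at 136436578 to 136436637 for C1qb, 136445766 to 136445825 for C1qc and 136452409 to 136452468 for C1qa.

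C3ar1, the receptor for the fragment C3a, read -1.70, -1.60 and -1.52 in control and -1.75, -2.02 and -1.79 on the arrays labelled cKO. The groups did not overlap, although the log2 difference was only -0.25 (SE 0.11, adjusted p = 0.69). C3, the protein on which all complement pathways converge, has 2 probes. Its brighter probe had a log2 difference of -0.02. Its other probe, spotted 10 times on each array, read -0.86, -0.83 and -0.80 in control and -1.26, -1.53 and -1.11 on the arrays labelled cKO, without overlap (log2 difference -0.47, SE 0.13, adjusted p = 0.44).

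The integrin genes of complement receptor 3 had differences near 0. Itgb2 had a log2 difference of 0.04 (SE 0.13). Itgam, the alpha chain, had one of -0.13 at its brightest probe (SE 0.09) and -0.03 and -0.0056 at its other 2 probes. The brightest Itgam probe carries a simple repeat, as the next sequences show, but its dimmer probes do not, and their groups overlapped too.

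For 3 genes the probe that was used shares a run of 20 bases with the promoter window of another gene, and the rule that a gene takes its brightest probe picked it. The stretch of 30 probe bases that holds the shared run is printed, because whether these probes read RNA of other genes was not tested. Capitals mark 20 shared bases.
Itgam, bases 1 to 30 of the probe: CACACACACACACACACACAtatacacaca
Siglech, bases 31 to 60 of the probe: tctgtctcaAAGAAAGAAAGAAAGAAAGAa
Csf3r, bases 28 to 57 of the probe: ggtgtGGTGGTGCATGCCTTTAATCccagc

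Some 20-base run of the Itgam probe was found in 84 windows of other genes, of the Siglech probe in 7 and of the Csf3r probe in 1. The file places the Csf3r probe on chromosome 19 (60157892 to 60157951 on mm9), whereas RefSeq has the gene on chromosome 4. For Siglech the other probe, without such a run, read -0.42, -0.095 and -0.94 in control and -0.67, -1.17 and -1.58 on the arrays labelled cKO. Its log2 difference was -0.66 (SE 0.29, adjusted p = 0.76) where the repeat-bearing probe gave -0.04, and control replicate 3 lay within the range of the other group. With these 3 probes set aside, the median over the genes was -0.48 and 0 passed.

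**Figure D3:**
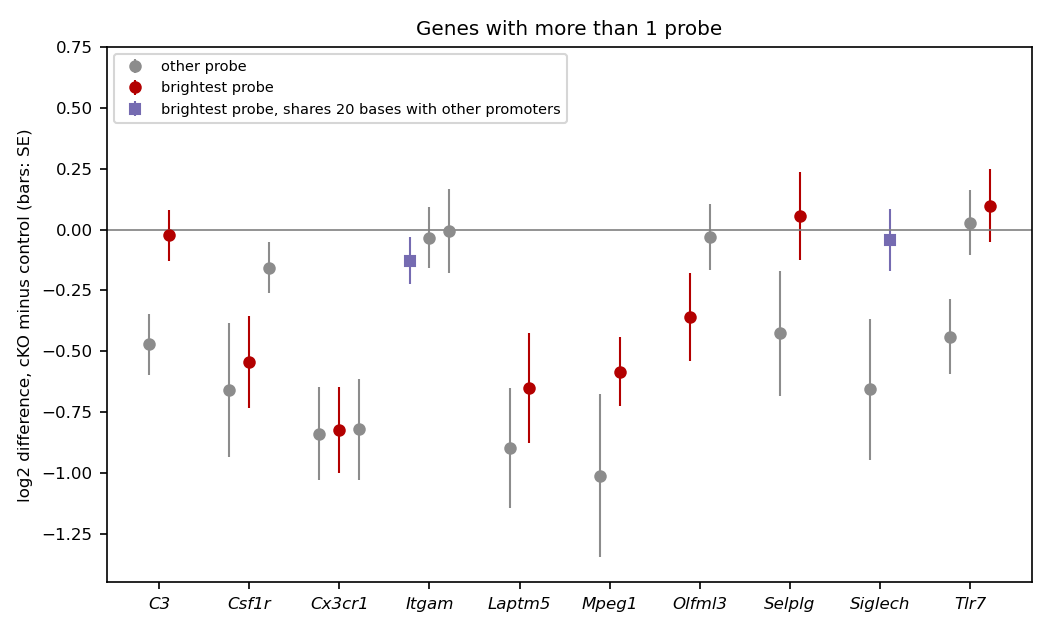
Log2 difference between the groups (vertical axis, arrays labelled cKO minus control, bars are SE) for each tested probe of the genes with more than 1 probe (horizontal axis). The probes of Cx3cr1 lie together near -0.82, while those of C3, Csf1r, Mpeg1, Siglech, Selplg and Tlr7 lie apart.

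The adaptors Tyrobp and Fcer1g, Trem2 and the IgG receptors, including the inhibitory Fcgr2b, make up 6 genes, and all 6 had a log2 difference below 0, with a median of -0.52. Trem2, a lipid-sensing receptor, had the most negative difference of the 43 genes. Its probe read 0.98, 1.08 and 1.26 in control and 0.69, 0.21 and -0.17 on the arrays labelled cKO, with no overlap and a 1.82-fold lower signal (log2 difference -0.86, SE 0.22, adjusted p = 0.33). Tyrobp, the adaptor of Trem2, read 1.64, 1.72 and 1.78 in control and 1.31, 0.90 and 0.57 on the arrays labelled cKO. Its groups did not overlap (1.72-fold lower, log2 difference -0.79, SE 0.19, adjusted p = 0.32). Both genes shared the order of the arrays, with cKO replicate 3 lowest.

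Fcer1g, the signalling chain shared by activating Fc receptors, read 1.09, 1.38 and 1.47 in control and 0.99, 0.57 and 0.68 on the arrays labelled cKO, without overlap (log2 difference -0.56, SE 0.15, adjusted p = 0.37). Fcgr1, the high-affinity receptor for IgG, read -3.06, -2.99 and -3.40 in control and -3.59, -3.36 and -3.94 on the arrays labelled cKO. The groups of Fcgr1 overlapped in 1 array, since cKO replicate 2 lay just above control replicate 3 (log2 difference -0.49, SE 0.18, adjusted p = 0.57). The activating low-affinity receptor gene Fcgr3 had a log2 difference of -0.47 (SE 0.19) and the inhibitory receptor gene Fcgr2b one of -0.34 (SE 0.14), with overlapping groups in both. Genes of the IgG receptors are similar in sequence, and how far their probes read each other's RNA was not tested.

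Toll-like receptors and their partners were lower in 5 of 6 genes by sign (44.3% of all genes), with a median of -0.32. Of them, 2 were lower at an unadjusted p under 0.05 (4.37% of all genes). Tlr2, a receptor for bacterial lipoproteins, read -2.85, -2.67 and -2.46 in control and -2.98, -3.21 and -3.13 on the arrays labelled cKO, with no overlap (1.36-fold lower, log2 difference -0.44, SE 0.13, adjusted p = 0.41). Unc93b1, which carries nucleic acid-sensing receptors to endosomes, read -0.35, -0.10 and -0.22 in control against -0.41, -0.63 and -0.73. These groups did not overlap, although control replicate 1 and cKO replicate 1 were close (log2 difference -0.36, SE 0.12, adjusted p = 0.50). Ly86, the partner of the receptor homologue CD180, read 1.41, 1.46 and 0.95 in control and 1.18, 0.84 and 0.44 on the arrays labelled cKO. For Ly86 control replicate 3 lay below cKO replicate 1, and the log2 difference was -0.45 (SE 0.22, adjusted p = 0.76).

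Tlr4, the receptor for lipopolysaccharide, read -3.94, -3.94 and -3.88 in control and -3.99, -4.42 and -4.05 on the arrays labelled cKO. All 3 of these lay below control, with 2 of them near it (log2 difference -0.24, SE 0.13, adjusted p = 0.82). Its co-receptor gene Cd14 had a log2 difference of -0.28 (SE 0.21). Tlr7, an endosomal receptor for single-stranded RNA, was the other gene whose probes differed in sign. Its brightest probe read -0.39, -0.37 and -0.57 in control and -0.17, -0.24 and -0.64 on the arrays labelled cKO (log2 difference 0.10, SE 0.15), and the groups overlapped. Of its other probes, 1 gave 0.03 and the other read -2.58, -2.41 and -2.63 in control against -2.67, -3.13 and -3.14. At this last probe the groups did not overlap, and the log2 difference was -0.44 (SE 0.15, adjusted p = 0.62).

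Of the transcription factor genes of the lineage, Irf8 was well measured and Spi1 was not. Irf8 read -0.99, -0.86 and -1.01 in control and -1.26, -1.71 and -2.23 on the arrays labelled cKO, without overlap (1.72-fold lower, log2 difference -0.78, SE 0.23, adjusted p = 0.42). Spi1 read -5.59, -5.08 and -4.88 in control and -4.44, -5.62 and -5.86 on the arrays labelled cKO. Its values spread more within the groups than between them (log2 difference -0.13, SE 0.38), and its probe was well above background on only 4 of the 6 arrays, so its level is poorly measured.

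Lysosomal and macrophage effector genes were lower in 7 of 7 by sign, with a median log2 difference of -0.52. The 7 include Csf3r, whose only probe the file places on another chromosome than the gene, so whether it reads Csf3r is not known. Mpeg1, which encodes the pore-forming protein perforin-2, read 0.39, 0.62 and 0.71 in control and 0.19, -0.0069 and -0.22 on the arrays labelled cKO, without overlap (1.5-fold lower, log2 difference -0.58, SE 0.14, adjusted p = 0.32). Its dimmer probe had a log2 difference of -1.01 (SE 0.33). Ctss, the lysosomal protease cathepsin S, read 1.08, 1.25 and 1.01 in control and 0.68, 0.54 and -0.063 on the arrays labelled cKO. The groups of Ctss did not overlap (1.66-fold lower, log2 difference -0.73, SE 0.20, adjusted p = 0.38).

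Aif1, whose product IBA1 is the usual stain for microglia, read 1.01, 1.01 and 0.65 in control and 0.69, 0.34 and -0.089 on the arrays labelled cKO. Its groups overlapped by 1 pair, control replicate 3 and cKO replicate 1 (1.49-fold lower, log2 difference -0.57, SE 0.21, adjusted p = 0.57). Mrc1, the mannose receptor, which in the brain is typical of macrophages at the borders, read -0.25, -0.62 and -0.87 in control and -0.95, -1.26 and -0.92 on the arrays labelled cKO. No values of Mrc1 overlapped (log2 difference -0.46, SE 0.18, adjusted p = 0.61), but cKO replicate 3 was the highest of its group, as it was in 3 of the 43 genes. The log2 difference was -0.52 for the lysozyme gene Lyz2 (SE 0.27) and -0.28 for Cd68, a glycoprotein of the lysosome (SE 0.14). It was -0.15 (SE 0.16) at the probe named for Csf3r, the receptor for granulocyte colony-stimulating factor. In each of these the groups overlapped.

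**Figure D4:**
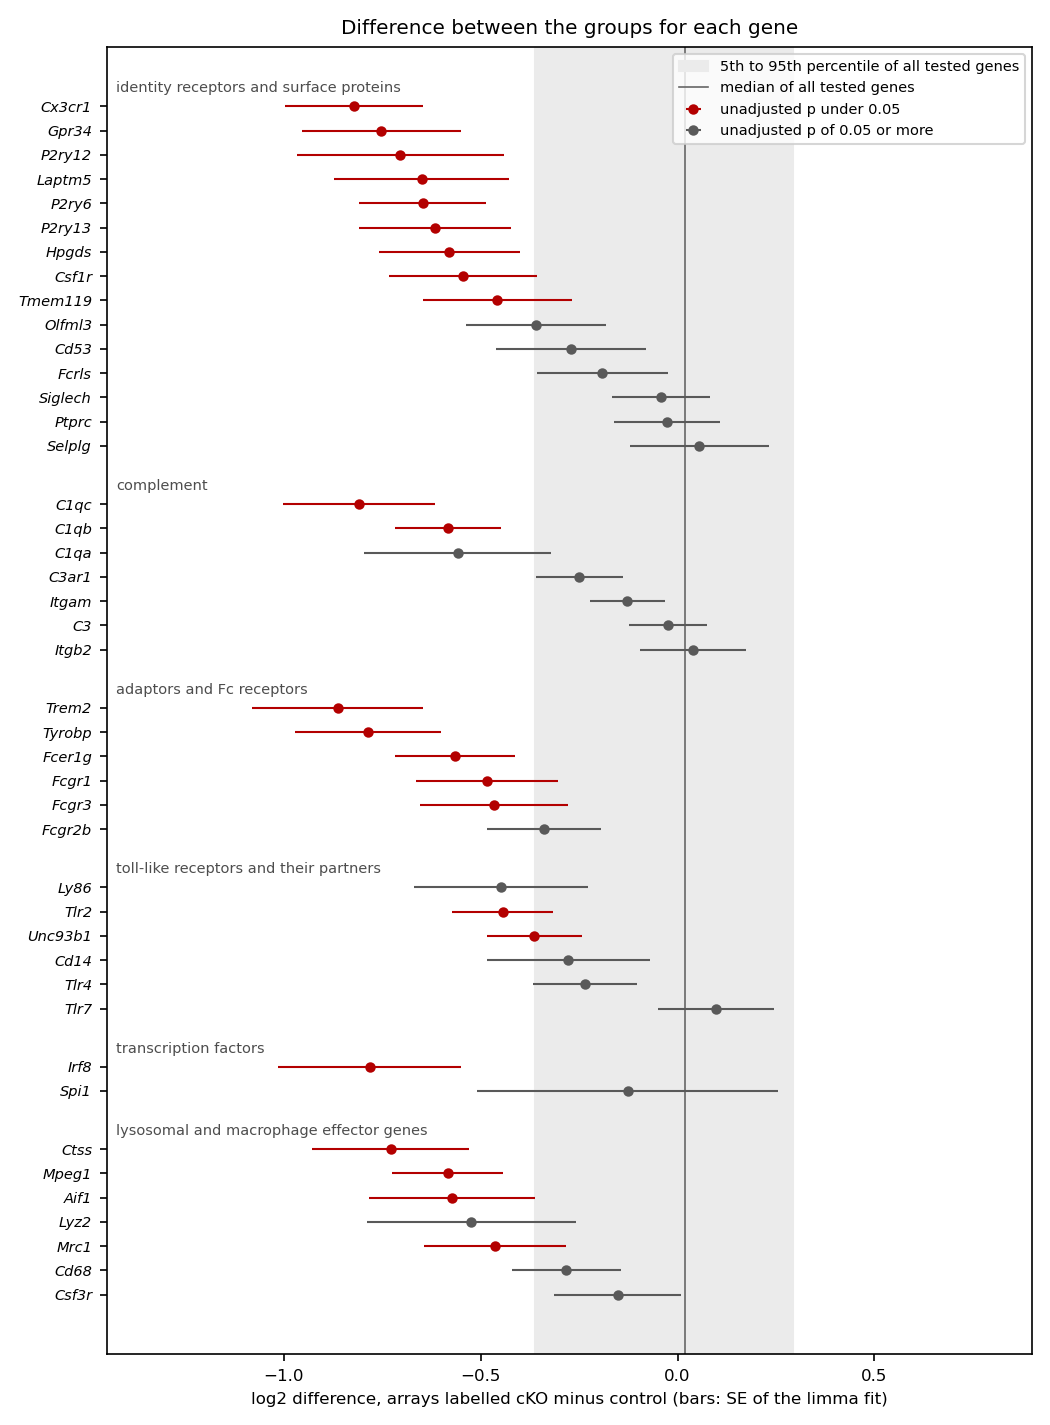
Log2 difference between the groups (horizontal axis, arrays labelled cKO minus control, bars are SE of the limma fit) for the 43 tested genes by role (vertical axis), in red where the unadjusted p was under 0.05. The grey band spans the 5th to 95th percentile of all tested genes, -0.36 to 0.29, and the line is their median of 0.02. No gene passed an adjusted p of 0.05.

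The size of the difference varied between the arrays labelled cKO. The median over the 43 genes, relative to the mean of the control arrays, was -0.04, 0.05 and 0.03 on the control arrays and -0.20, -0.55 and -0.65 on cKO replicates 1, 2 and 3. Of the 43 genes, cKO replicate 3 was the lowest of its group in 29, replicate 2 in 11 and replicate 1 in 3. Among all 6 arrays, cKO replicate 3 was the lowest in 28 of the 43 (12.2% of all genes). Replicate 2 was the lowest of the 6 in 10 (20% of all genes) and replicate 1 in 3 (16.3% of all genes). In cKO replicate 1, 24 genes lay below all control arrays (22.6% of all genes did), in replicate 2 35 (28.6%) and in replicate 3 36 (20.9%). Within slide row 1 the median difference was -0.51, within row 2 it was -0.76, and with the row as a block it was -0.62. Against control replicate 2 alone, the control array without Y-linked signal, it was -0.55. Leaving out 1 array at a time gave medians between -0.62 and -0.36. The within-row and row-block values set arrays in slide column 2 against arrays in column 1. The part of sex and slide position in these differences was not tested beyond these values.

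Other genes enriched in microglia made up a list of 39 tested genes outside the 44. In bulk tissue other cell types can add to the signal of such genes, and their part was not tested. By sign 36 of 39 were below 0 (44.3% of all genes), with a median of -0.37 (0.02 over all genes). An unadjusted p under 0.05 with a lower signal was found for 21 (4.37% of all genes). In 20, every array labelled cKO lay below control (6.19% of all genes). The smallest p belonged to Cd86, a costimulatory receptor gene (log2 difference -0.999, SE 0.18, adjusted p = 0.19), Gpr84, a receptor for medium-chain fatty acids (-0.51, SE 0.11), and Cd180, the toll-like receptor homologue that pairs with the Ly86 product (-1.17, SE 0.25). Sall1, a transcription factor gene of microglial identity, differed by -0.37 and was named after its value was seen. None of the 39 passed over all genes. This list was also chosen with earlier results of these data known, so its shares are a description.

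Genes typical of phagocytic microglia of the early postnatal white matter numbered 18, with 14 below 0 and a median of -0.43. Control replicate 3 stood apart here. The list medians were -0.15, -0.06 and 0.32 on control replicates 1, 2 and 3, and -0.34, -0.41 and -0.41 on the arrays labelled cKO. Within slide rows 1 and 2, which leave control replicate 3 out, the median differences were -0.26 and -0.25. Itgax, which encodes the integrin CD11c, read -2.90, -2.35 and -1.98 in control and -3.54, -3.41 and -3.95 on the arrays labelled cKO, without overlap (log2 difference -1.23, SE 0.25, adjusted p = 0.25). The lipid carrier gene Apoe, which astrocytes also express, differed by -0.47 and the tetraspanin gene Cd63 by -0.35. Of 36 lysosome and phagocytosis genes, many of which all cells use, 32 were below 0 with a median of -0.18, led by Tfeb, the transcription factor of lysosomal genes (-0.45), and Ctsz (-0.43).

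Genes of the pathways around these receptors had medians nearer 0. Of 32 genes of ITAM and Fc receptor signalling, 23 were below 0 (median -0.21), led by the kinase gene Lyn (-0.51), the phosphatase gene Ptpn6 (-0.61) and the adaptor gene Blnk (-0.70). Of 33 genes of toll-like receptor signalling, 26 were below 0 (median -0.07), led by Tlr6, which pairs with Tlr2 (-0.62), Cd180 and the interferon regulatory factor gene Irf5 (-0.58). Among 22 macrophage transcription factor genes, 18 were below 0 (median -0.11). In that list Bhlhe40 stood at 0.92 (SE 0.12, adjusted p = 0.097), while Irf5 and Batf3 (-0.28) stood below 0. At an unadjusted p under 0.05, 10 of the 32, 4 of the 33 and 4 of the 22 were lower (4.37% of all genes). In the same order, 0, 0 and 2 were higher (3.12% of all genes). Every array labelled cKO lay below control in 9, 6 and 5 (6.19% of all genes). None of the genes of these lists passed over all genes.

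Complement genes outside the 44 lay on both sides of 0, with 20 of 36 below 0 and a median of -0.02. C1s1 and C1ra, which encode proteases of the C1 complex, had the smallest p of the list. C1s1 read -2.22, -2.13 and -2.08 in control and -3.17, -3.31 and -2.79 on the arrays labelled cKO, without overlap (log2 difference -0.95, SE 0.15, adjusted p = 0.12). C1ra differed by -0.88 (SE 0.21), whereas C1rb, another C1r gene, differed by only -0.03 (SE 0.21). C1ql1, a C1q-like gene that is not of the immune pathway, differed by -0.41. C4b, which encodes the next component and which astrocytes express, read 0.58, 0.22 and 1.39 in control and -0.20, -0.57 and -0.32 on the arrays labelled cKO (log2 difference -1.09, SE 0.29, adjusted p = 0.36). C1rb and C4b were named after their values were seen.

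Signals that act on microglia were mixed. Of 19 tested, 14 were below 0 with a median of -0.18. The smallest p belonged to the receptor kinase gene Tyro3, at 0.45 (SE 0.09, adjusted p = 0.24), the growth factor gene Tgfb1 at -0.41 (SE 0.10) and Csf1, a ligand of Csf1r, at -0.38 (SE 0.12). Il34, the other ligand of Csf1r, read 1.89, 2.11 and 0.83 in control and 1.70, 1.25 and 0.83 on the arrays labelled cKO. Cx3cl1, which encodes the fractalkine bound by Cx3cr1, read 5.48, 5.47 and 4.84 against 5.34, 5.19 and 4.64. In both of these ligand genes control replicate 3 stood apart from the other control arrays, and the groups overlapped (log2 differences -0.35, SE 0.37, and -0.21, SE 0.24). These 2 ligands were named after their values were seen.

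Markers of other cell types were read on the same arrays. The summed level of a list, in units of the array's 75th percentile, is given for each group, and each astrocyte and oligodendrocyte marker was well above background on at least 1 array. Astrocyte markers were below 0 in 14 of 14 genes, with a median of -0.46. Of these, 13 were lower at an unadjusted p under 0.05 (4.37% of all genes). In 11, every array labelled cKO lay below control (6.19% of all genes). They summed to between 163 and 191 in control and between 116 and 138 on the arrays labelled cKO. Gfap, the intermediate filament of astrocytes, differed by -1.15 (SE 0.15, adjusted p = 0.089), Aqp4 by -0.46 and Ndrg2 by -0.42. Oligodendrocyte lineage markers were below 0 in 12 of 14 (median -0.29), led by Cnp (-0.98), Enpp6 (-1.52) and Gpr17 (-0.66). Of the 14, 7 were lower at an unadjusted p under 0.05. Every array labelled cKO lay below control in 8 and above it in 1. They summed to between 166 and 207 in control and 139 and 160 on the arrays labelled cKO. The astrocyte medians were -0.37, -0.40 and -0.51 on cKO replicates 1, 2 and 3, and the oligodendrocyte medians -0.35, -0.23 and -0.31, against -0.20, -0.55 and -0.65 for the microglia and complement genes. The part of these other shifts in the result was not tested.

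Macrophages of the brain's borders express many of the 44 genes. Their 11 markers were below 0 in 10 genes, with a median of -0.38, led by Folr2 (-0.57), Stab1 (-0.63) and Ccl24 (-0.72), and summed to between 5.37 and 7.14 in control and 3.88 and 5.70 on the arrays labelled cKO. On cKO replicates 1, 2 and 3 their medians were -0.34, -0.76 and -0.07. The 43 genes were at their lowest on cKO replicate 3. Within slide row 1 the border macrophage median was -0.90 and within row 2 -0.03, where the 43 genes stood at -0.51 and -0.76. Meningeal fibroblast markers followed a like order, below 0 in 8 of 8 (median -0.37) with medians of -0.27, -1.16 and 0.33, and summed to between 24.5 and 37.7 in control and 12.8 and 38.5 on the arrays labelled cKO. None of these 8, led by Col1a2, Igf2 and Col1a1, had an unadjusted p under 0.05.

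Markers of blood cells were also read. Those of monocytes, 6 of them tested, had a median of -0.02 and summed to between 4.80 and 5.67 in control and 4.65 and 5.73 on the arrays labelled cKO, and the defining marker Ccr2 was not well above background on any array. Neutrophil markers had a median of 0.24 over 8 genes and summed to between 3.20 and 4.03 in control and 3.43 and 4.37 on the arrays labelled cKO, with S100a9 at a log2 difference of 1.04 (SE 0.31, adjusted p = 0.43), Mpo at 0.43 and S100a8 at 1.04. The medians were 0.05 for markers of T and NK cells, 0.12 for B cells, 0.40 for erythroid cells and 0.03 for mast cells, and -0.09 for markers of hippocampus, striatum and thalamus. The markers of these neighbouring tissues summed to between 8.38 and 15.5 in control and 7.47 and 7.76 on the arrays labelled cKO. Whether the dissected tissue differed between the groups was not tested. Endothelial markers were below 0 in 7 of 10 (median -0.12), with 0 at an unadjusted p under 0.05, and pericyte and smooth muscle markers in 7 of 8 (median -0.22). Neuronal markers were above 0 in 8 of 13 (median 0.16). Markers of layer 4 of the primary sensory cortex, listed as a check of the dissected area, were detected in 6 of 6. These markers themselves differed, with 6 of 6 below 0 and a median of -0.51. Of the 6, 4 were lower at an unadjusted p under 0.05, and in 4 the groups did not overlap. Their detection thus cannot show whether the same area was dissected in both groups.

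**Figure D5:**
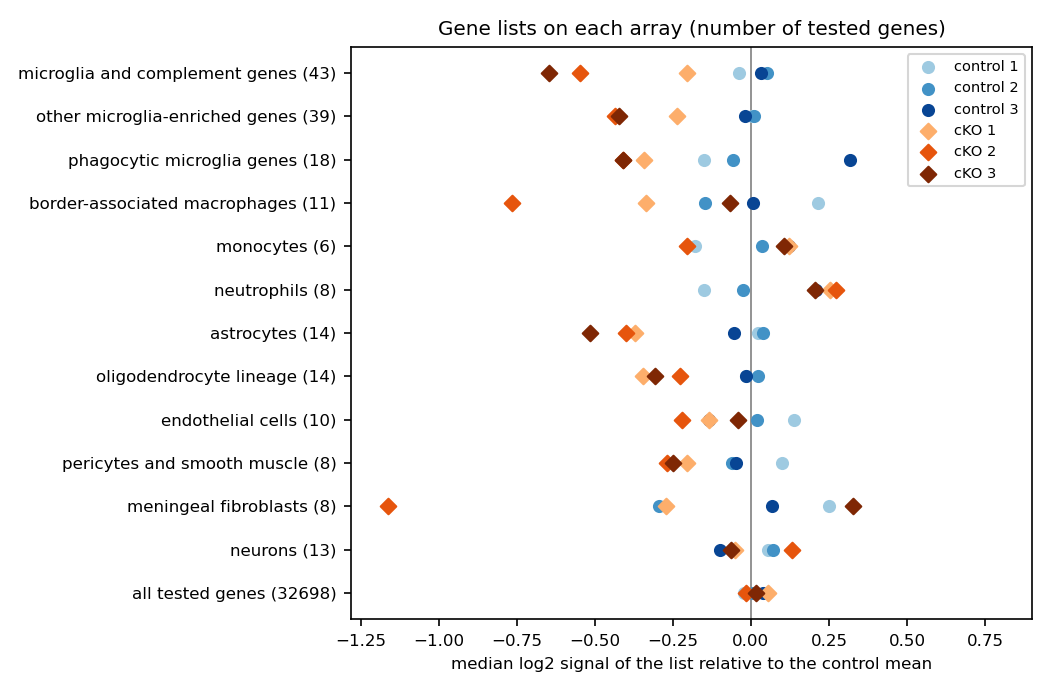
Median log2 signal of each gene list relative to the control mean (horizontal axis) on each array, for the microglia and complement genes and for marker lists (vertical axis, number of tested genes in brackets), circles for control and diamonds for the arrays labelled cKO. The microglia and complement genes, other microglia-enriched genes, phagocytic microglia genes, astrocytes, the oligodendrocyte lineage and pericytes have all 3 diamonds left of all circles, whereas border macrophages and meningeal fibroblasts do not.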

How the data were processed

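The deposited scanner files of the 1-colour (Cy3) arrays hold intensity values, which Feature Extraction 10.5.1.1 had detrended and background-subtracted but not normalized between arrays, per the file headers. The deposited series matrix holds log2 values, and the sources used here do not say how they were made. Its values match quantile-normalized log2 signals minus each probe's median (95% within 0.00194, column medians between -0.0064 and 0.00645), so its scale and centring are inferred, and it served as an alternative.

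For each array the 75th percentile was subtracted from the log2 processed signals, and these values were tested with limma 3.58.1 in R 4.3.3 (lmFit, eBayes, two-sided, Benjamini-Hochberg over 32698 genes), after leaving out control and outlier spots and probes well above background on fewer than 3 arrays. Each gene took its brightest probe. Further probes of a gene were tested in a second fit with each of 50030 probes as its own feature, adjusted over those probes. Of 55681 probes, 28273 were named by accession through RefSeq GRCm38.p6, 427 by another accession, and 2034 and 162 by symbol or synonym. The file's own name was kept for 24726. Coordinates of probes are on mm9, as in the files. The fit was tested on simulated data. The members and lists were chosen with earlier results of these data known, and the runs of 20 shared bases after seeing the data. Per role, values are given for the 4 genes with the smallest p and those with probes of both signs, and per other list for the 3 with the smallest p. Precision is limited by 6 arrays. The alternatives are named with their values in the closing section. Same-numbered samples had deviations correlated at -0.20, 0.08 and 0.17. Such correlations over 3 arrays a group cannot settle whether the numbers pair samples, and the main fit used no pairing.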

Additional observations from a re-analysis of the deposited data

How the results depend on the processing

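The number of arrays limits what can pass. Of the 43 genes, 0 passed under each alternative run, where the lowest adjusted p of any of them was 0.071, with array weights. The median stayed between -0.76 and -0.36 in all 26 settings, with -0.76 within slide row 2. Over all genes, 12 passed with quantile normalization and with the authors' matrix, 24 with median centring, 89 and 75 with normexp background correction under percentile and quantile scaling, 0 without a filter on dim probes, 13 with a filter on all 6 arrays, 110 with an intensity trend and robust variances, 167 with array weights, 0 with a linear term for the slide row, 0 with the row as a block, 1 with a term for Y-linked signal, 86 at an adjusted p of 0.10, and 0 to 4 when 1 array was left out. With the replicate number as a block, although whether the numbers pair samples is not known, 0 genes passed and the median of the 43 genes was -0.46. Of the 43 genes, 15 had an unadjusted p under 0.05 with the term for Y-linked signal (3.64% of all genes) and 14 to 27 with 1 array left out (5.58% to 9.2%), of which the lowest came without control replicate 2 (14) or cKO replicate 3 (15). Without the 2 Y-linked arrays 12 did (4.1%), but there a single control array is assumed to vary like the arrays labelled cKO. Arrays labelled cKO lay below every control array in 33 genes without the Y-linked arrays (21.3% of all genes) and in 21 to 32 with 1 array left out (9.27% to 12.2%), with the 32 (11%) without cKO replicate 1. These shares exceed 6.19% since fewer arrays are compared.

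Of 1116 values of single genes under other settings, 33 were counted as reversed, in 8 genes, all with log2 differences between -0.15 and 0.10. The 1116 include values within a single slide row, but the 33 leave out sign changes there. Within a single row, Fcrls (0.158 in row 1) and Itgam (0.039 in row 2), outside the 8 genes, changed sign. So did C3, Csf3r, Itgb2, Ptprc, Selplg (-0.239 in row 1), Siglech and Tlr7 (-0.273 in row 2), which are among the 8. Averaging a gene's probes gave -0.185 for Selplg and -0.105 for Tlr7. Array weights gave 0.016 for C3, 0.069 for Siglech, -0.068 for Tlr7 and 0.026 for Csf3r. The linear row term gave -0.005 for Itgb2 and -0.001 for Selplg, and the row as a block gave -0.023 for Itgb2, 0.131 for Siglech, -0.056 for Tlr7 and 0.084 for Csf3r. The term for Y-linked signal gave 0.040 for C3, 0.065 for Siglech and 0.003 for Csf3r, and leaving out those 2 arrays gave 0.039, 0.086 and 0.026. With normexp at the 75th percentile, Spi1 was at 0.039. With 1 array left out, the values ran from -0.070 to 0.032 for C3, -0.079 to 0.117 for Itgb2, -0.126 to 0.048 for Ptprc, -0.106 to 0.050 for Siglech, -0.083 to 0.225 for Selplg, -0.559 to 0.153 for Spi1 and -0.241 to 0.011 for Csf3r. The cause of these changes was not tested.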
